A study of Mus musculus with 20 samples.

Results

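*Slc43a1* and 8 other transporter genes were followed through the livers of *Crem* KO and WT mice at the end and at the onset of light. The genes were *Slc43a1*, *Slc43a2*, *Slc43a3*, *Slc7a2*, *Slc7a5*, *Slc38a2*, *Slc38a3*, *Slc38a4* and *Slc1a2*. Each is read by 1 probe set that the array annotation assigns to that gene alone, so that 9 of the 19661 genes named on the array are described. *Slc43a1* was selected on its own measured values, since its level at 12 h stood further above that at 0 h in WT than in KO livers. These values are therefore given as a description with no test.

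Whole livers of 20 mice were hybridized to GeneChip Mouse Gene 1.0 ST arrays, with 1 mouse per array and 5 mice in each of 4 groups. The groups were KO at 12 h, WT at 12 h, KO at 0 h and WT at 0 h, where 12 h is 7 pm, when the light went off, and 0 h is 7 am, when it came on. KO mice were homozygous for the mutated *Crem* allele (Crem-/-). All mice, of a mixed 129Pas x C57Bl/J background, were 8 weeks old, untreated, and fed without restriction. *Crem* encodes a transcription factor of the cAMP response, which is active in the liver during fasting. The mutation is carried in every cell, so that an effect within hepatocytes cannot be told apart from one that reaches the liver from elsewhere.

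Amino acid transporters are membrane proteins that carry amino acids into and out of cells. The liver takes up amino acids that arrive from the gut, breaks many of them down, makes urea and glucose from them, and releases others, such as glutamine, to the blood. LAT-type carriers move large neutral amino acids without sodium, CAT-type carriers move cationic ones, and SNAT carriers take up small neutral amino acids or glutamine together with sodium. Feeding, and with it the supply of amino acids, follows the light cycle in mice, which eat mostly in the dark.

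All values are RMA-normalized log2 levels of a probe set, which compare the same gene between livers and not 1 gene with another. The median level of an array lay between 7.13 and 7.17 in KO livers at 12 h, 7.07 and 7.15 in WT livers at 12 h, 7.19 and 7.23 in KO livers at 0 h, and 7.18 and 7.24 in WT livers at 0 h. No pair of arrays was identical, with correlations from 0.969 to 0.994. *Alb*, *Apoa1* and *Ttr*, which hepatocytes express, lay above the 99.9th percentile of all probe sets on every array. The probe set of *Crem* was at 7.60 ± 0.17 in KO and 7.97 ± 0.06 in WT livers at 12 h, and at 7.85 ± 0.30 in KO and 8.32 ± 0.17 in WT livers at 0 h (SD, n = 5 each). The groups overlapped at 0 h, where the highest KO liver, the library labelled KO mouse 1, was at 8.17 and the lowest WT liver at 8.11. Which of its probes lie in the mutated part is not known here, so this level does not by itself check the labels. The 12 h arrays all form batch 5 and the 0 h arrays batches 1 to 4, each with both genotypes. Time and batch therefore cannot be told apart, whereas KO and WT livers shared their batches.

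*Slc43a1* encodes LAT3, a sodium-independent carrier of branched-chain amino acids, phenylalanine and methionine that is known from liver and pancreas. At 12 h its log2 level was 8.49, 8.17, 8.46, 8.47 and 8.18 in KO mice 18, 55, 109, 110 and 166, against 9.15, 8.79, 9.05, 9.15 and 9.54 in WT mice 111, 167, 168, 169 and 170. At 0 h it was 8.02, 7.87, 8.03, 8.06 and 8.49 in KO mice 77, 143, 1, 144 and 76, against 7.95, 7.94, 8.10, 7.97 and 8.04 in WT mice 146, 78, 145, 80 and 147. All 5 WT livers at 12 h lay above every other liver. KO mouse 76 at 0 h lay within the range of the KO livers at 12 h, and the other 0 h livers lay below all 12 h livers.

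**Figure D1:**
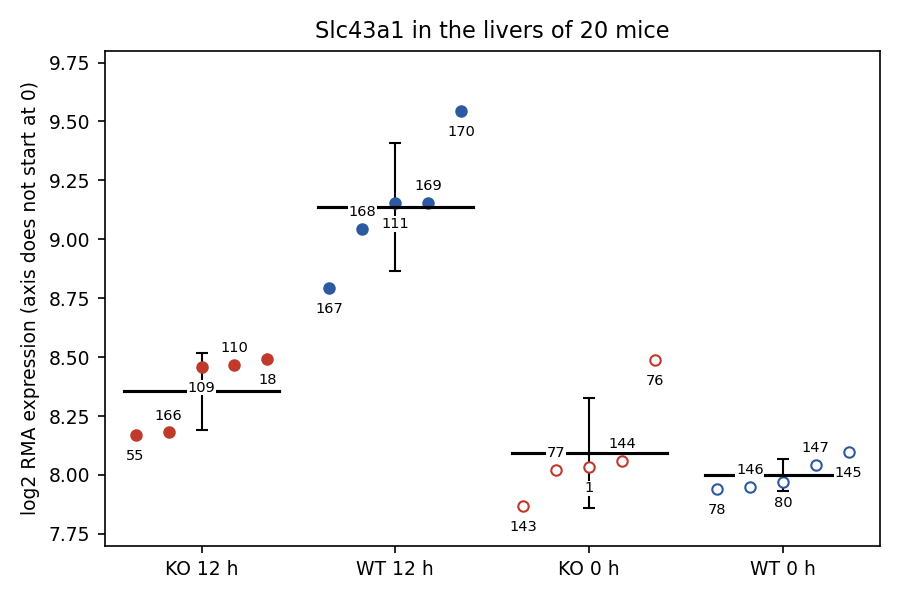
Log2 RMA expression of *Slc43a1* (vertical axis, cut off above 0) in 20 livers, grouped by genotype and time. Points are single mice marked with their numbers, filled at 12 h and open at 0 h, and lines with whiskers show the group mean and SD (n = 5). WT livers at 12 h lie between 8.79 and 9.54, above all others, and KO mouse 76 lies at 8.49, apart from the other 0 h livers.

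The group means were 8.35 ± 0.16 in KO and 9.14 ± 0.27 in WT livers at 12 h, and 8.09 ± 0.23 in KO and 8.00 ± 0.07 in WT livers at 0 h (SD, n = 5 each). From these means, the level at 12 h exceeded that at 0 h by 0.26 in KO livers (standard error 0.12, 1.20-fold) and by 1.14 in WT livers (standard error 0.12, 2.20-fold), a difference of -0.88 between the changes (standard error 0.17). Put in order, the means ran from WT at 12 h through KO at 12 h and KO at 0 h to WT at 0 h. Only the step between KO and WT livers at 12 h left no overlap between neighbours in this order. In KO livers the level was 1.72-fold lower than in WT livers at 12 h (log2 difference -0.78, standard error 0.12), whereas at 0 h the log2 difference was 0.09 (standard error 0.12).

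These values chose the gene and describe it. Among 25689 probe sets, the change with time in WT livers ranked as the 104th highest and that in KO livers as the 3072nd highest. The difference between the changes ranked as the 45th lowest and the KO minus WT difference at 12 h as the 39th lowest. KO mouse 76 and WT mouse 170 were the highest of their groups. Without KO mouse 76 the change in KO livers was 0.36 and the difference between KO and WT livers at 0 h was -0.0048, and without both mice the difference between the changes was -0.68. Within batches, KO minus WT was -0.0051, 0.09, 0.03 and 0.44 in batches 1 to 4 at 0 h, with 1 or 2 mice of a genotype in each, and -0.78 in batch 5 at 12 h. The means of the 4 batches at 0 h spanned 0.32 on the log2 scale, more than the change in KO livers and less than that in WT livers.

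*Crem* encodes a factor that binds the cAMP response element (CRE), and *Slc43a1* differed between 12 h and 0 h livers, which also differ in batch. The promoter of *Slc43a1*, from 250 bases before to 50 bases after the start of transcription, is therefore shown. It lies at chr2:84840073-84840372 on the plus strand of GRCm38.p6 (RefSeq), and capitals mark an E-box, the element of the CLOCK and BMAL1 factors.
Slc43a1: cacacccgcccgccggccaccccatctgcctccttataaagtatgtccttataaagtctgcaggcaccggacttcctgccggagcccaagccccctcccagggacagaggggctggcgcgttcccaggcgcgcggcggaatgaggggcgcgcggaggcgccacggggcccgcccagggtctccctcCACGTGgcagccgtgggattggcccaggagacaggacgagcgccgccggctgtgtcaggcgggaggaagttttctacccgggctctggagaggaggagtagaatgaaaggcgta

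The window was searched on both strands for the CRE (TGACGTCA), its shorter form the half-CRE (TGACG, which lies within the CRE), the E-box (CACGTG), the D-box (TTATGTAA), the core of the ROR element (AGGTCA) and the amino acid response element (TGATGNAAN). It held 1 E-box at bases 187 to 192, and none of the other letters. Over all 32851 promoters of this length in the table, the E-box was found in 7.15%, the half-CRE in 20.8%, the CRE in 1.79%, the D-box in 0.938%, the ROR core in 16.3% and the amino acid response element in 3.95%. The window held 26 CpG dinucleotides, against a median of 7.0 over all promoters, and its GC content was 67.7%, against a median of 52.7%. The table held 8 such windows for 5 of the 9 genes. Besides the E-box of *Slc43a1*, the matches were a half-CRE in the window of *Slc38a2*, a half-CRE in 1 of the 3 windows of *Slc38a4* and a ROR core in that of *Slc1a2*, with none in the 2 windows of *Slc43a2*. Whether a half-CRE goes with the changes of *Slc38a2* or *Slc38a4* was not tested. A match is a description of the letters and not evidence of binding.

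The 8 other genes were set beside *Slc43a1*. They and the gene lists used later were chosen with earlier results of these data known. Their counts are therefore descriptions and not an independent test. All 8 had a higher mean at 12 h than at 0 h in both genotypes. In KO livers 6 of the 8 rose and 0 fell at an adjusted p under 0.05 from limma, where 20.3% of all probe sets were called and 10.6% were called higher. In WT livers 7 of the 8 rose and 0 fell, where 27.8% of all probe sets were called and 13.5% were called higher. The same 5 genes, *Slc43a3*, *Slc7a2*, *Slc38a2*, *Slc38a3* and *Slc1a2*, passed in both genotypes. The median change was 0.46 in KO and 0.61 in WT livers, beside medians over all probe sets of -0.02 in KO and -0.03 in WT livers. The difference between the KO and WT changes passed for 0 of the 8, and for 0.0% of all probe sets, with 1757 of 25689 at an unadjusted p under 0.05.

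The split of all calls depended on the scale. It was 2722 higher and 2489 lower in KO livers, and 3676 and 1603 after centring each array on its median. In WT livers it was 3462 and 3682, and 5294 and 1995 after centring. The 8 genes had a higher mean at 12 h on both scales, but their calls depended on the scale too. After centring, *Slc43a2* and *Slc38a4* also passed in KO livers (adjusted p from limma 0.020 and 0.022). *Slc7a5* then also passed in WT livers (adjusted p from limma 0.025), so that all 8 passed in both genotypes. In whole liver, fewer cells of a type and less RNA per cell cannot be told apart.

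**Figure D2:**
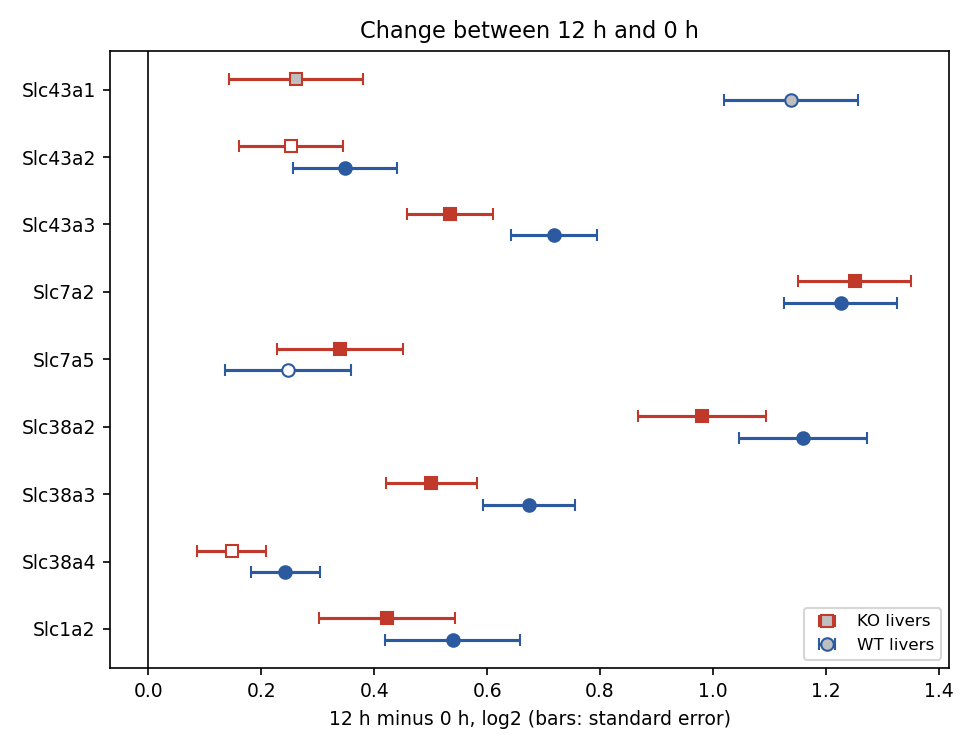
Change in log2 level between 12 h and 0 h (horizontal axis, 12 h minus 0 h) of the 9 transporter genes in KO livers (red squares) and WT livers (blue circles). Bars are standard errors from the model of 20 arrays, filled symbols passed at an adjusted p under 0.05, open ones did not, and grey ones (*Slc43a1*) were not tested. All symbols lie right of 0, and the KO and WT symbols of *Slc43a1* lie furthest apart, at 0.26 and 1.14.

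The nearest relatives of *Slc43a1* are *Slc43a2* and *Slc43a3*. *Slc43a2* encodes LAT4, which carries the same kinds of amino acid as LAT3. Its log2 level was 7.96, 7.76, 8.02, 8.00 and 7.97 in KO and 8.23, 8.07, 8.04, 8.07 and 8.24 in WT livers at 12 h. The levels at 0 h were 7.58, 7.51, 7.84, 7.94 and 7.60 in KO and 7.56, 7.66, 7.92, 7.80 and 7.97 in WT livers. The 12 h livers of WT mice lay above all 0 h livers, whereas KO mouse 55 at 12 h lay among the 0 h livers of its genotype. *Slc43a2* rose by 0.35 on the log2 scale in WT livers (standard error 0.09, adjusted p from limma 0.0075), while the change of 0.25 in KO livers (standard error 0.09, adjusted p 0.057) missed the threshold. It passed in KO livers in 7 of 29 other settings, among them without KO mouse 1, 144 or 55 (adjusted p 0.043, 0.020 and 0.034).

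The KO and WT changes of *Slc43a2* differed by -0.10 (95% confidence interval -0.37 to 0.18, adjusted p from limma 0.920). At 12 h every KO liver lay below every WT liver, with a difference of -0.18 (95% confidence interval -0.38 to 0.01, adjusted p from limma 0.422). It was the only 1 of the 8 genes without overlap there, as were 2.42% of all probe sets.

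*Slc43a3* belongs to the same family by sequence but is known as a carrier of purine nucleobases and not of amino acids. It lies on chromosome 2 beside *Slc43a1*, with 1 protein-coding gene, *Rtn4rl2*, between them in RefSeq. Its log2 level was 10.51, 10.41, 10.55, 10.38 and 10.18 in KO and 10.67, 10.52, 10.76, 10.56 and 10.66 in WT livers at 12 h. The 0 h livers gave 9.79, 9.85, 10.05, 9.82 and 9.83 in KO and 9.91, 10.05, 9.87, 9.85 and 9.90 in WT livers. In both genotypes all 12 h livers lay above all 0 h livers.

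*Slc43a3* rose by 0.53 in KO livers (standard error 0.08, 1.45-fold, adjusted p from limma 2.52e-05) and by 0.72 in WT livers (standard error 0.08, 1.65-fold, adjusted p 6.79e-07). KO and WT changes differed by -0.18 (95% confidence interval -0.41 to 0.04, adjusted p 0.784). At 12 h the KO mean was 10.40 ± 0.15 and the WT mean 10.64 ± 0.10 (SD, n = 5 each), a difference of -0.23 with a 95% confidence interval of -0.39 to -0.07. With an adjusted p of 0.212 from limma over all probe sets, it was not called. Without the library labelled KO mouse 1, the highest of its group, the rise in KO livers was 0.58.

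**Figure D3:**
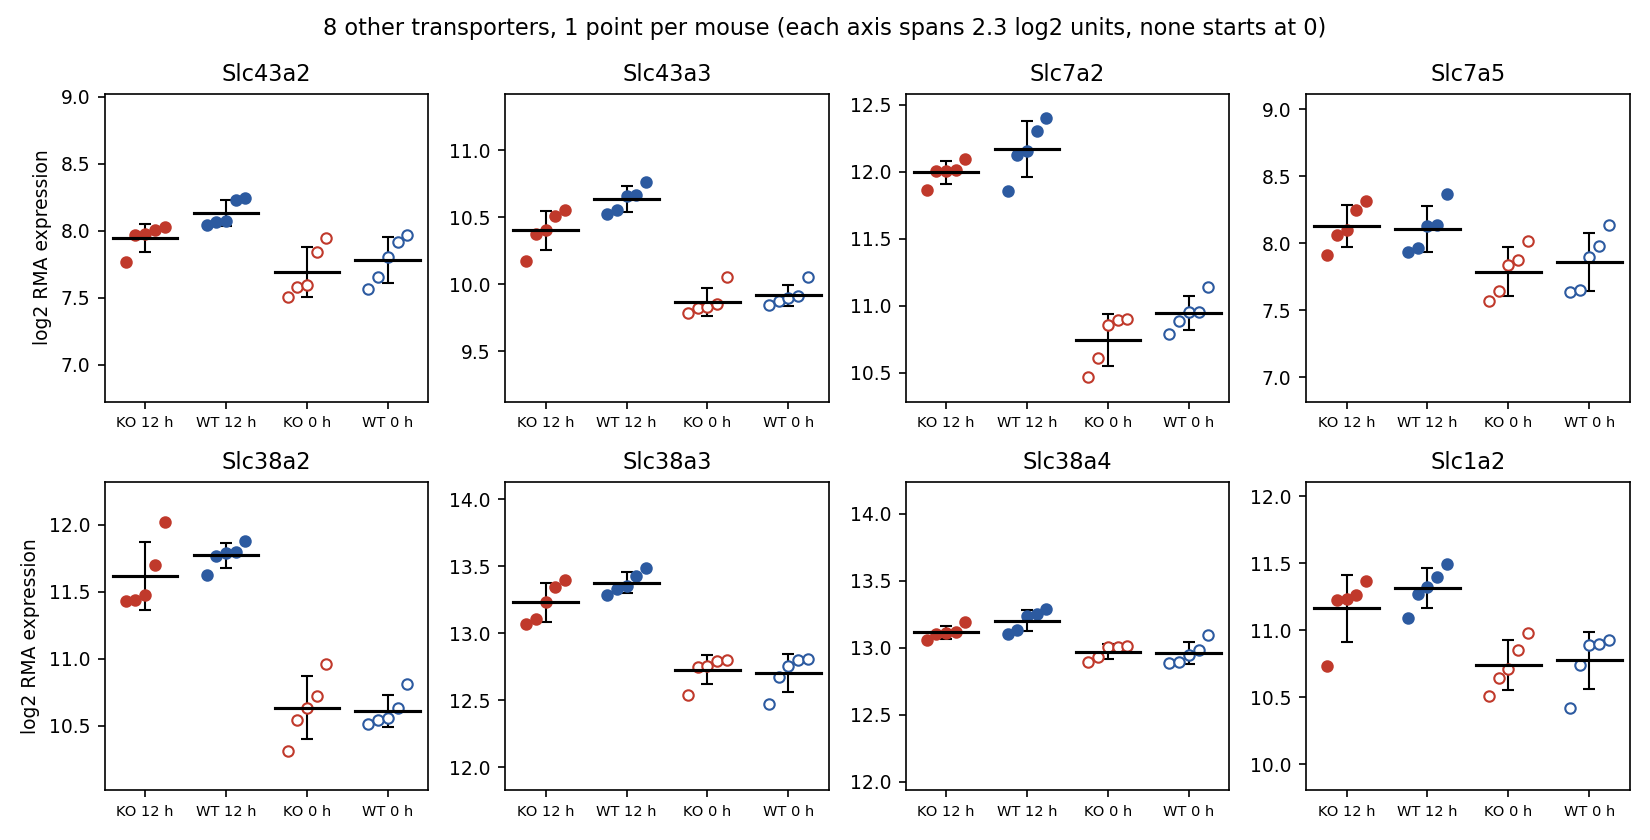
Log2 RMA expression (vertical axes, each spanning the same range and cut off above 0) of the 8 other transporter genes in 20 livers, grouped by genotype and time. Points are single mice, filled at 12 h and open at 0 h, and lines with whiskers show the group mean and SD (n = 5). *Slc7a2* and *Slc38a2* show the widest gap between 12 h and 0 h, and KO and WT livers overlap at 12 h in every panel but that of *Slc43a2*.

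*Slc7a2* encodes CAT2, a carrier of arginine, lysine and ornithine. It had the highest change of the 8 genes in both genotypes. Its log2 level was 12.01, 12.09, 12.00, 12.02 and 11.86 in KO and 12.40, 12.13, 11.86, 12.16 and 12.31 in WT livers at 12 h. The levels at 0 h were 10.47, 10.89, 10.61, 10.85 and 10.90 in KO and 11.14, 10.79, 10.89, 10.96 and 10.95 in WT livers. Every 12 h liver lay above every 0 h liver. *Slc7a2* rose by 1.25 in KO livers (standard error 0.10, 2.38-fold, adjusted p from limma 1.37e-08) and by 1.23 in WT livers (standard error 0.10, 2.34-fold, adjusted p 1.99e-08). The changes differed by 0.03 (95% confidence interval -0.27 to 0.32). KO minus WT was -0.17 at 12 h and -0.20 at 0 h, and its 95% confidence interval over both times was -0.33 to -0.04 (adjusted p from limma 0.414). Within batches 1 to 4 it was -0.46, -0.18, -0.07 and -0.05.

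*Slc7a5* encodes LAT1, an exchanger of large neutral amino acids that works only together with the heavy chain encoded by *Slc3a2*. Its log2 level was 7.91, 8.32, 8.06, 8.10 and 8.25 in KO and 7.93, 8.37, 8.13, 8.13 and 7.97 in WT livers at 12 h. The 0 h livers gave 7.64, 7.87, 8.02, 7.57 and 7.84 in KO and 7.65, 8.14, 7.98, 7.89 and 7.63 in WT livers. The 12 h and 0 h livers overlapped in both genotypes. *Slc7a5* rose by 0.34 in KO livers (standard error 0.11, adjusted p from limma 0.033) and stood 0.25 higher in WT livers, which missed the threshold (standard error 0.11, adjusted p 0.101). The call in KO livers was lost without KO mouse 77, 144, 55, 110 or 166 (adjusted p 0.083, 0.096, 0.089, 0.051 and 0.076). The changes differed by 0.09 (95% confidence interval -0.23 to 0.42). *Slc3a2*, named here after its values were seen, rose by 0.24 in KO livers (adjusted p 0.0277) and by 0.33 in WT livers (adjusted p 0.00272).

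*Slc38a2* encodes SNAT2, a sodium-coupled carrier of small neutral amino acids whose gene is induced in cultured cells when amino acids are scarce. Its log2 level was 11.43, 12.02, 11.70, 11.44 and 11.48 in KO and 11.63, 11.88, 11.79, 11.77 and 11.79 in WT livers at 12 h. At 0 h it was 10.54, 10.72, 10.96, 10.63 and 10.31 in KO and 10.56, 10.81, 10.54, 10.52 and 10.63 in WT livers. All 12 h livers lay above all 0 h livers. *Slc38a2* rose by 0.98 in KO livers (standard error 0.11, 1.97-fold, adjusted p from limma 1.94e-06) and by 1.16 in WT livers (standard error 0.11, 2.23-fold, adjusted p 2.16e-07). The difference between the changes was -0.18 (95% confidence interval -0.51 to 0.15).

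Its promoter at chr15:96699679-96699978 on the minus strand of GRCm38.p6 (RefSeq) is shown because the gene had the second highest change of the 8 in both genotypes. Capitals mark a half-CRE at bases 224 to 228, an element that 20.8% of all promoters held. The window held no E-box, 41 CpG dinucleotides and a GC content of 73.0%.
Slc38a2: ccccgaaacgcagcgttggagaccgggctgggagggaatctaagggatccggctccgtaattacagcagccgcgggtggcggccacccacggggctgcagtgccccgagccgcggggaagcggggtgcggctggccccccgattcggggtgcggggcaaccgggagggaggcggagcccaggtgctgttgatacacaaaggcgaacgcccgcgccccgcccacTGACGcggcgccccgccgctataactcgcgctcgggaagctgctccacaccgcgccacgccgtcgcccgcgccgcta

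*Slc38a4*, the neighbour of *Slc38a2* on chromosome 15 with 0 protein-coding genes between them in RefSeq, encodes SNAT4, a carrier of the same class found mainly in liver. Its log2 level lay between 13.06 and 13.19 (mean 13.12 ± 0.05) in KO and between 13.10 and 13.29 (13.20 ± 0.08) in WT livers at 12 h. The 0 h range was 12.89 to 13.02 (12.97 ± 0.06) in KO and 12.89 to 13.10 (12.96 ± 0.08) in WT livers (SD, n = 5 each). *Slc38a4* rose by 0.24 in WT livers (standard error 0.06, adjusted p from limma 0.0052). In KO livers the change of 0.15 (standard error 0.06, adjusted p 0.093) missed the threshold although the KO livers at 12 h and 0 h did not overlap. It was the lowest change of the 8 genes in both genotypes.

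*Slc38a3* encodes SNAT3, which moves glutamine in either direction across the hepatocyte membrane. Its log2 level lay between 13.07 and 13.40 (mean 13.23 ± 0.14) in KO and between 13.29 and 13.49 (13.38 ± 0.08) in WT livers at 12 h. At 0 h it lay between 12.54 and 12.80 (12.73 ± 0.11) in KO and between 12.47 and 12.81 (12.70 ± 0.14) in WT livers (SD, n = 5 each). *Slc38a3* rose by 0.50 in KO livers (standard error 0.08, 1.42-fold, adjusted p from limma 0.000101) and by 0.67 in WT livers (standard error 0.08, 1.60-fold, adjusted p 2.95e-06). The changes differed by -0.17 (95% confidence interval -0.41 to 0.06). Without the library labelled KO mouse 1, the lowest of its group, the rise in KO livers was 0.46.

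*Slc1a2* encodes the glutamate carrier GLT-1, known in the liver from the hepatocytes around the central vein, which turn glutamate into glutamine. Its log2 level lay between 10.73 and 11.37 (mean 11.16 ± 0.25) in KO and between 11.09 and 11.50 (11.32 ± 0.15) in WT livers at 12 h. At 0 h it lay between 10.51 and 10.98 (10.74 ± 0.18) in KO and between 10.42 and 10.93 (10.78 ± 0.21) in WT livers (SD, n = 5 each). *Slc1a2* rose by 0.42 in KO livers (standard error 0.12, adjusted p from limma 0.015) and by 0.54 in WT livers (standard error 0.12, adjusted p 0.0020). Only KO mouse 166 at 12 h lay among the 0 h livers of its genotype, and without it the rise in KO livers was 0.53. *Glul*, which makes glutamine in the same cells and was named after its values were seen, stood at -0.08 in KO and -0.03 in WT livers for 12 h minus 0 h, and neither passed (adjusted p 0.584 and 0.851).

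The groups did not overlap between 12 h and 0 h for 5 of the 8 genes in KO livers, where this held with 12 h higher for 8.87% of all probe sets. In WT livers they did not overlap for 7 of the 8, against 9.21%. The means of the 4 batches at 0 h spanned 0.13 for *Slc38a3*, 0.15 for *Slc38a4*, 0.20 for *Slc43a3*, 0.23 for *Slc7a2*, 0.34 for *Slc43a2*, 0.36 for *Slc7a5*, 0.40 for *Slc1a2* and 0.41 for *Slc38a2*. The change with time exceeded this span in both genotypes for *Slc43a3*, *Slc7a2*, *Slc38a2*, *Slc38a3*, *Slc38a4* and *Slc1a2*. In KO livers the excess was less than the standard error of the change for *Slc38a4* (0.148 against 0.146, standard error 0.06). The same held there for *Slc1a2* (0.42 against 0.40, standard error 0.12). The change did not exceed the span in KO livers for *Slc43a2* and in either genotype for *Slc7a5*.

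Between genotypes, 0 of the 8 genes passed at either time or over both. At 12 h 0.0234% of all probe sets were called (6, with 3216 at an unadjusted p under 0.05), a count that ranged from 1 to 37 when 1 array was left out. The split was 4 higher and 2 lower in KO livers, and 5 and 18 after centring each array on its median. At 0 h 0.0% were called (1148 at an unadjusted p under 0.05), and over both times 0.0117% (3, with 2537 at an unadjusted p under 0.05). At 12 h KO livers had the lower mean for 7 of the 8 genes, which were chosen with earlier results of these data known. Their median difference was -0.15, beside 0.0013 over all probe sets, with differences from -0.23 for *Slc43a3* to 0.02 for *Slc7a5*. The adjusted p ranged from 0.212 to 0.959. At 0 h 5 of the 8 differences were negative and 3 positive, with the lowest adjusted p at 0.987. The batch 1 to 4 differences of *Slc43a3* and *Slc7a2* were all negative, and those of the other 6 genes took both signs.

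**Figure D4:**
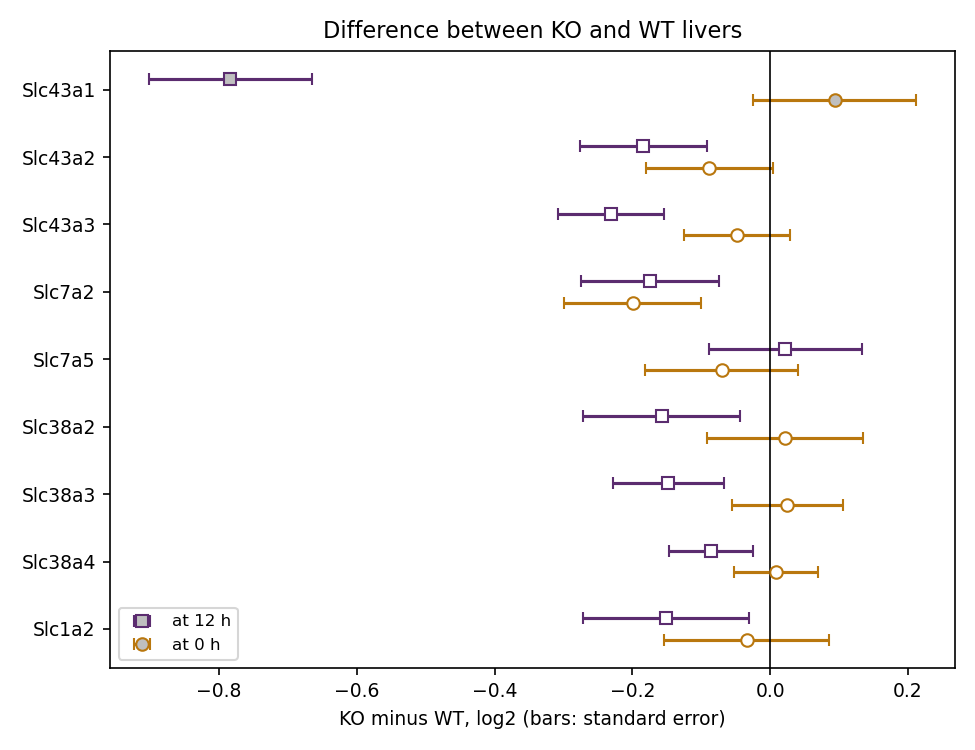
Difference in log2 level between KO and WT livers (horizontal axis, KO minus WT) of the 9 transporter genes at 12 h (purple squares) and at 0 h (orange circles). Bars are standard errors from the model of 20 arrays, open symbols did not pass at an adjusted p under 0.05, and grey ones (*Slc43a1*) were not tested. *Slc43a1* lies at -0.78 at 12 h and at 0.09 at 0 h, and the other genes lie between -0.23 and 0.02 at 12 h.

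The rest of the amino acid transporters at the cell surface and in lysosomes moved in both directions. Of 42 further genes, 9 rose and 4 fell in KO livers (median change -0.10), and 10 rose and 8 fell in WT livers (median -0.07). Over all probe sets 20.3% were called in KO and 27.8% in WT livers, the background of this count and of those for the lists of enzymes and sensors. Of the 42, 9 rose and 3 fell in both genotypes. After centring each array on its median the counts were 10 and 3 in KO livers and 11 and 5 in WT livers, and the WT median was 0.02. KO minus WT and the difference between the changes passed for 0 of the 42.

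*Slc6a9*, the glycine carrier GLYT1, rose most, by 1.28 in KO livers (standard error 0.11, 2.43-fold, adjusted p from limma 3.65e-08) and by 1.19 in WT livers (standard error 0.11, 2.28-fold, adjusted p 8.70e-08). Its level was 10.66 ± 0.13 in KO and 10.65 ± 0.26 in WT livers at 12 h, and 9.38 ± 0.08 in KO and 9.46 ± 0.20 in WT livers at 0 h (SD, n = 5 each). *Slc38a10*, a SNAT family member, rose by 0.60 in KO and 0.39 in WT livers, and *Slc38a7*, a lysosomal glutamine carrier, by 0.43 and 0.54. *Slc36a4*, of the proton-assisted carrier family, rose by 0.45 in KO and 0.55 in WT livers. *Slc16a10*, the aromatic amino acid carrier TAT1, rose by 0.43 in KO and 0.51 in WT livers.

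Among those that fell, *Slc1a4*, the neutral amino acid exchanger ASCT1, was lower at 12 h by 0.56 in KO and 0.51 in WT livers. *Slc3a1*, the heavy chain of the cystine carrier, fell by 0.54 in KO livers (adjusted p from limma 0.0462, and 0.0768 after centring) and by 0.84 in WT livers (adjusted p 0.00229). *Slc7a10*, an exchanger of small neutral amino acids, fell by 0.38 in KO and 0.34 in WT livers, where the call was lost after centring (adjusted p from limma 0.0534). *Slc6a20a*, a proline carrier, fell by 0.40 in KO livers and stood at -0.08 in WT livers (0.01 after centring). *Slc7a3*, the cationic carrier CAT3, and *Slc36a3*, of the same family as *Slc36a4*, fell by 0.47 and 0.36 in WT livers. They stood at -0.02 and -0.22 in KO livers, with *Slc7a3* at 0.04 after centring. Group means were 6.61 to 6.99 for *Slc7a10* and 6.66 to 7.06 for *Slc6a20a*. They were 5.57 to 6.04 for *Slc7a3* and 6.49 to 6.85 for *Slc36a3*. All of these lay below the array medians of 7.07 to 7.24. Those of *Slc1a4* (7.38 to 8.03) and *Slc3a1* (10.00 to 10.84) lay above them. Whether the low levels stand for expression in the liver was not tested.

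**Figure D5:**
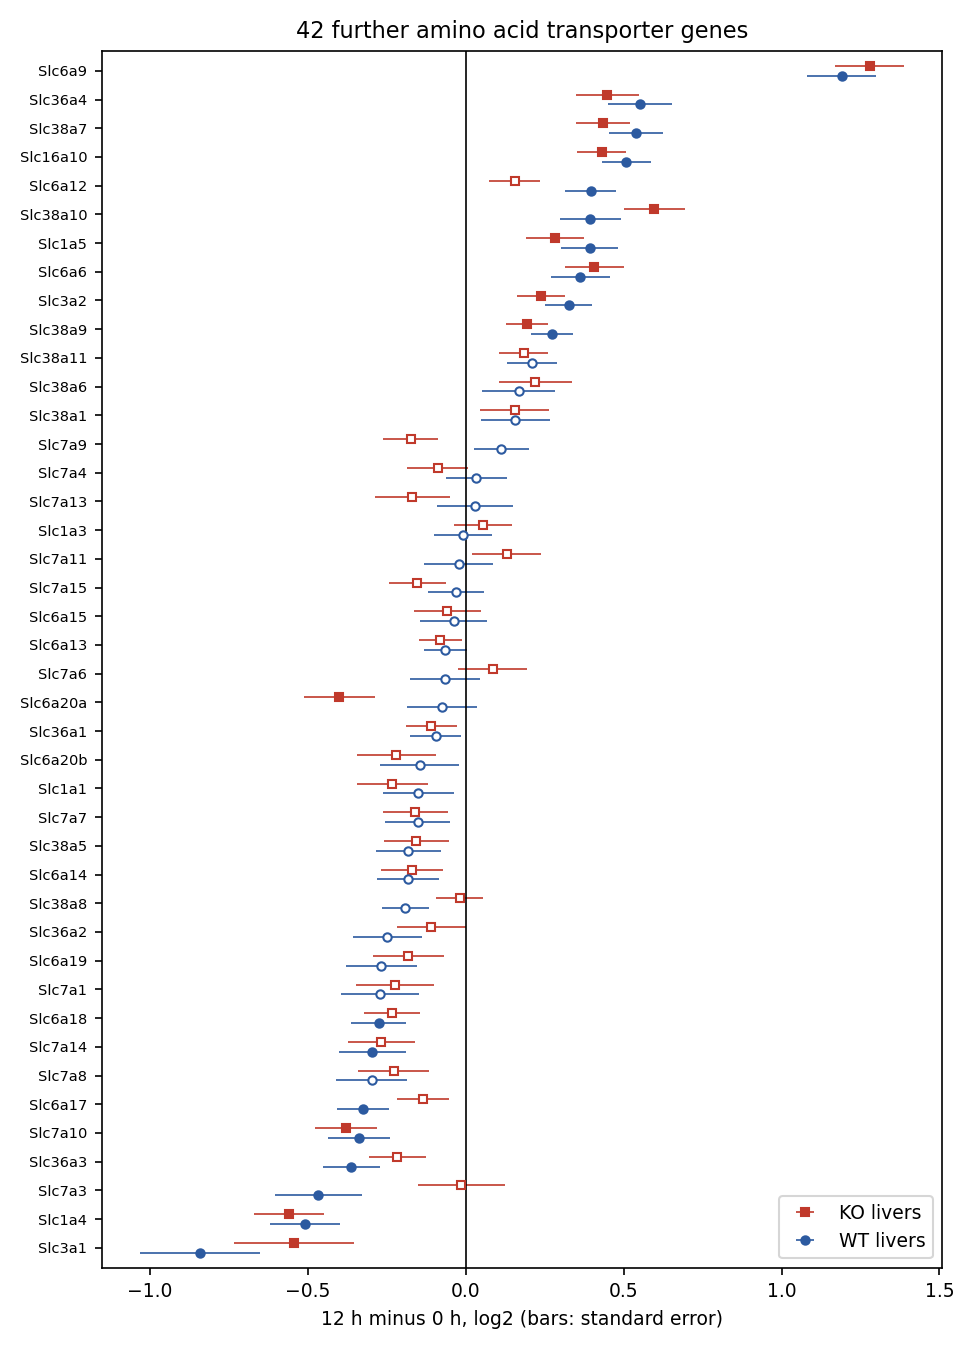
Change in log2 level between 12 h and 0 h (horizontal axis, 12 h minus 0 h) of 42 further amino acid transporter genes in KO livers (red squares) and WT livers (blue circles), ordered by the change in WT livers. Bars are standard errors and filled symbols passed at an adjusted p under 0.05 from limma. *Slc6a9* lies alone at the top, and the others spread to both sides of 0.

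The enzymes that use the carried amino acids were taken next. Of 28 measured genes for the breakdown of branched-chain and aromatic amino acids, 1 rose and 6 fell in KO livers (median -0.05), and 6 rose and 1 fell in WT livers (median 0.05). Before centring, the 7 of 28 called in each genotype lay near the 20.3% of all probe sets called in KO and the 27.8% in WT livers. Only *Auh*, an enzyme of leucine breakdown, passed in both, with a rise of 0.49 in KO and 0.57 in WT livers. In KO livers *Bcat2*, which takes the amino group from branched-chain amino acids, fell by 0.35 (adjusted p from limma 0.0251, and 0.0582 after centring) and *Hgd*, of tyrosine breakdown, by 0.33. In WT livers *Mccc2* and *Ivd*, both of leucine breakdown, rose by 0.36 and 0.26. The difference between the KO and WT changes passed for 0 of the 28, so the split counts do not show that the genotypes differed. The counts also moved with the scale, to 2 and 3 in KO (median 0.01) and 13 and 1 in WT livers after centring. Of all 25689 probe sets, 5279 were then called in KO and 7289 in WT livers.

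Of 13 measured enzymes of glutamine and glutamate, 5 rose and 1 fell in KO livers (median 0.06), and 6 rose and 0 fell in WT livers (median 0.14). The transaminases *Gpt2* and *Got1* rose by 0.89 and 0.48 in KO livers and by 0.79 and 0.93 in WT livers. *Prodh*, of proline breakdown, rose by 0.45 in KO and 0.59 in WT livers. Of 10 mitochondrial amino acid carriers, 4 rose and 0 fell in KO and 4 rose and 1 fell in WT livers, among them *Slc25a44*, a carrier of branched-chain amino acids, by 0.43 in KO and 0.47 in WT livers.

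Cells sense amino acids through ATF4, which responds to their lack, and through mTORC1, which responds to their presence. Of 21 measured genes of the ATF4 response, 2 rose and 5 fell in KO livers (median -0.14), and 6 rose and 5 fell in WT livers (median -0.08, and 0.01 after centring). *Ddit3* fell by 0.58 in KO and 0.70 in WT livers and *Mthfd2* by 0.61 in KO and 0.52 in WT livers, while *Cebpb* rose by 0.43 in KO and 0.78 in WT livers. Of 26 measured genes of mTORC1 and its amino acid sensors, 8 rose and 4 fell in KO livers (median 0.11), and 10 rose and 2 fell in WT livers (median 0.14). *Fnip2* and *Fnip1*, partners of folliculin, rose by 1.08 and 0.74 in KO and by 1.21 and 0.86 in WT livers. *Mtor* itself rose by 0.52 in KO and 0.57 in WT livers, and *Lamtor2*, of its lysosomal anchor, fell by 0.57 in KO and 0.59 in WT livers. In each of these lists 0 genes passed for genotype or for the difference between the changes.

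Of 17 core clock genes measured, 12 rose and 4 fell in KO livers and 12 rose and 2 fell in WT livers, and 0 passed for genotype. Over all probe sets 20.3% were called in KO and 27.8% in WT livers, with 10.6% and 13.5% called higher. These shares are the background of the clock counts and, before other scalings, of the marker counts with time. Markers of other cells were set beside the changes. Of 10 Kupffer cell markers, 0 rose and 2 fell with time in KO livers and 0 rose and 7 fell in WT livers, where 20.3% of all probe sets were called in KO and 27.8% in WT livers. The count in KO livers depended on the scale, with 5 lower in KO and 7 in WT livers after quantile normalization, and 1 in KO and 6 in WT livers after centring, and the difference between the changes passed for 0 of the 10. Their mean level ranged from 9.08 to 9.44 in KO and 8.98 to 9.34 in WT livers at 12 h, and from 9.24 to 9.75 in KO and 9.43 to 9.76 in WT livers at 0 h. The mean level of 10 sinusoidal endothelium markers ranged from 9.46 to 9.75 in KO and from 9.66 to 9.96 in WT livers at 12 h, and from 9.55 to 9.76 in KO and from 9.71 to 9.79 in WT livers at 0 h. That of 11 measured pancreatic acinar markers, a tissue where *Slc43a1* is also expressed, ranged from 6.59 to 6.73 in KO and from 6.53 to 6.73 in WT livers at 12 h, and from 6.71 to 6.89 in KO and 6.73 to 6.88 in WT livers at 0 h. For genotype 0 markers of any list passed. Of 12 markers of the hepatocytes around the central vein, where *Slc1a2* is known, 3 rose and 0 fell in each genotype. This lay near the 20.3% of all probe sets called in either direction in KO and the 27.8% in WT livers. The shares called higher were 10.6% and 13.5%. On the other scales 0 of the 12 fell, and 5 rose in KO and 6 in WT livers after centring and 5 in KO and 4 in WT livers after quantile normalization. Of all 25689 probe sets, 3676 in KO and 5294 in WT livers were called higher after centring, and 2576 and 2935 after quantile normalization. Whether the list as a whole rose was not tested. Of 9 measured markers of the hepatocytes around the portal vein, 1 rose and 0 fell in KO livers, and 2 rose and 1 fell in WT livers. On the log2 scale a level has no zero, so the absence of a marker could not be read. The part of these cells in the results for the transporters was not tested.

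The genes whose levels ran most like that of *Slc43a1* over the 20 arrays, out of 19652 others, were *Tox* (Pearson r = 0.90), *Hps3* (0.90), *Pitrm1* (0.89), *Dop1b* (0.89), *Fmo2* (0.89) and *Tmco3* (0.88). Those that ran most opposite were *Gpr179* (-0.90), *Procr* (-0.89) and *Obsl1* (-0.89). These values describe the ranking and carry no test, since the arrays fall into groups by time and batch and the genes were picked as the extremes. The mean level of *Fmo2*, a flavin-containing monooxygenase, was 9.50 in KO and 10.33 in WT livers at 12 h, and 8.10 in KO and 8.12 in WT livers at 0 h. That of *Tox*, a nuclear protein known from T cells, was 7.74 in KO and 8.13 in WT livers at 12 h, and 7.30 in KO and 7.28 in WT livers at 0 h. After each group mean was taken away, other genes led, *Fbh1* (0.81), *Dgat1* (0.80), *Cdc40* (0.80), *Mrgprh* (0.77), *Cyp2d13* (0.77) and *Armc9* (0.76).

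Of the other 8 transporters *Slc43a3* ran most like *Slc43a1* over the 20 arrays (r = 0.83), followed by *Slc38a3* (0.80), *Slc7a2* (0.77), *Slc38a4* (0.77), *Slc43a2* (0.76), *Slc38a2* (0.69), *Slc1a2* (0.69) and *Slc7a5* (0.34). With the group means taken away, the values lay between -0.48 for *Slc38a2* and 0.34 for *Slc43a2*, so that livers of 1 group that were high in *Slc43a1* were not regularly high in the others.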

How the data were processed

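Liver RNA of 20 mice was hybridized to Affymetrix arrays. The authors deposited log2 values per probe set, which the submitters' processing notes describe as RMA with no version, so background and differences between arrays had been corrected before deposit. Of 35557 probe sets, 25689 were tested and the 9868 with no value were left out. A genome build for the array values is not given in the sources used, and the promoter windows are those of GRCm38.p6. Genes were named from the platform annotation (20777 probe sets with 1 gene, 232 with several, 4680 with none).

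Groups follow the genotype and time labels, and each array is 1 mouse. A model of 4 group means over 20 arrays was fitted in limma 3.58.1 (R 4.3.3, lmFit and eBayes). Adjustment of p was by Benjamini-Hochberg over all probe sets, with a threshold of 0.05 and intervals at 95%. The script was tested on simulated data. The number of arrays limits the precision. The files held 0 columns of other samples.

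The 9 genes and all lists were chosen with earlier results of these data known. Named were the 9 genes, up to 4 passing genes per list, direction and comparison with the largest changes (of these the text gives some), and the 6 highest and 3 lowest correlations with *Slc43a1*, or 6 highest within groups. For list genes the brightest probe set counted. Alternatives were batch as a block, only the arrays compared, bright probe sets, quantile normalization, centring, an intensity trend with robust prior, array weights and leaving out arrays.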

Additional observations from a re-analysis of the deposited data

Results flagged for a closer look

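In 4 of the 36 sets of 5 values formed by the 9 transporter genes and the 4 groups, 1 mouse lay far from the rest, and chance alone would give about 1.8 such sets (1 in 20). KO mouse 55 had a log2 level of 7.76 for *Slc43a2* at 12 h, where the other KO livers had 7.96 to 8.02. KO mouse 166 had 10.73 for *Slc1a2* at 12 h, where the others had 11.23 to 11.37. The library labelled KO mouse 1 at 0 h was far from the rest for 2 genes, with *Slc43a3* at 10.05 beside 9.79 to 9.85, and *Slc38a3* at 12.54 beside 12.75 to 12.80. In the same library the level of *Crem* lay within the range of WT livers.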

How the results depend on the processing

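Of the tested changes with time, those of *Slc43a3*, *Slc7a2*, *Slc38a2*, *Slc38a3* and *Slc1a2* kept their direction and stayed past the threshold in both genotypes in all 29 other settings, as did *Slc43a2* and *Slc38a4* in WT livers. *Slc38a4* passed in KO livers in 4 settings (adjusted p from limma down to 0.018) and *Slc7a5* in WT livers in 2, among them centring (adjusted p 0.025). Leaving out 1 array gave 5 to 7 calls among the 8 genes in KO and 7 to 8 in WT livers. For *Slc43a1* it gave 0.20 to 0.36 for the change in KO livers, 1.04 to 1.22 in WT livers and -0.96 to -0.78 for their difference, which was -0.68 without KO mouse 76 and WT mouse 170, a setting chosen after seeing the data.

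For KO minus WT at 12 h, where 6 probe sets were called, a fixed batch block left 3. The 12 h arrays alone, with fewer samples and a spread estimated from these only, left 0. Restriction to bright probe sets, which tests fewer, and centring gave 23 each, quantile normalization and array weights 2 each, and an intensity trend 11. Leaving out 1 array gave 1 to 37. The highest counts came without WT mice 167 (37), 169 (27) and 80 (11), and the lowest without KO mouse 55 (1). There were 2 calls when KO mouse 77 or 143 or WT mouse 78, 146 or 147 was left out alone. There were 3 when KO mouse 1, 109 or 110 or WT mouse 145 was left out alone. Over both times, 3 calls became 1 with bright probe sets and 2 to 9 leaving out 1 array.

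Differences near 0 that had not passed changed sign. That between the changes of *Slc7a2* was -0.0022 with centring and -0.052 to 0.083 leaving out 1 array. At 12 h *Slc7a5* was at -0.020 with centring, -0.013 without WT mice 80 and 170 and -0.013 without KO mouse 76 and WT mouse 170 (-0.025 to 0.087 leaving out 1 array), and over both times at -0.053 to 0.011. At 0 h *Slc38a4* was at -0.0036 with the block and -0.0064 with centring (-0.010 to 0.042), *Slc1a2* at 0.0075 with array weights and 0.024 without KO mouse 76 and WT mouse 170 (-0.12 to 0.024), *Slc38a2* at -0.0028 without WT mice 80 and 170 (-0.060 to 0.10) and *Slc38a3* at -0.033 to 0.071. With batch as a random block (correlation 0.029), 4720 probe sets were called for time in KO and 6595 in WT livers. The other scalings of the gene lists were also chosen after seeing the data. Except where the setting itself shows it, the cause was not tested. No paired analysis was possible because no mouse number occurs in more than 1 group.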
